A study of Mus musculus with 6 samples.

Results

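The Slc15 genes encode the proton-coupled oligopeptide transporters, and all 5 mouse genes of that name (Slc15a1 to Slc15a5) were followed in RNA-seq of activated satellite cells, the resident stem cells of skeletal muscle. The members were taken by gene symbol from the 55536 annotated genes of the count data, and 4 of them were among the 22404 genes tested. The family was singled out because Slc15a2 was already known to be much lower without Hira in this same comparison, so the members' values between the groups are given as a description, without a test. The controls were Pax7CreErt2;Hira fl/+ mice (3 samples), and the cKO mice were Pax7CreErt2;Hira fl/fl (3 samples). Hira encodes a chaperone of the histone variant H3.3, and the Cre recombinase, active after tamoxifen, is driven by Pax7, a gene expressed in satellite cells. The labels name C57BL/6J as the strain and call the controls WT, whereas the study's methods give the controls the same Cre and 1 floxed Hira allele. Both groups were male mice of 8 to 12 weeks that received tamoxifen food for 2 weeks and then regular food for 1 week. The tibialis anterior muscle was injured with barium chloride, and at day 5 satellite cells were sorted as CD34+ ITGA7+ CD45- TER119- SCA1- and cultured for 48 h. The methods call the RNA samples independent and do not say whether each came from separate mice, so p-values measure only the spread between these samples, which may be technical.

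Transporters of this family move short peptides across membranes together with protons. Slc15a1 (PEPT1) is the peptide transporter of the intestinal lining, and Slc15a2 (PEPT2) is the high-affinity transporter known from kidney tubules, choroid plexus and glial cells. Slc15a3 (PHT2) and Slc15a4 (PHT1) sit in membranes of endosomes and lysosomes, carry peptides and histidine, and are best known from macrophages and other immune cells, where Slc15a4 takes part in signalling by endosomal Toll-like receptors. Slc15a5 is little studied.

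The starts of Slc15a2 and Slc15a4 are shown because these genes, a scarce and the most abundant member of the family in these cells, behaved differently between the groups. Each run is the 250 bases before the RefSeq transcription start on GRCm38.p6, written 5′ to 3′ on the gene's own strand, which is the minus strand for both genes. Slc15a2 was read from chr16:36784963-36785212 and Slc15a4 from chr5:127617393-127617642. The Slc15a2 window adjoins the end of its annotated span at 36784962. The Slc15a4 window lies inside the annotated span of that gene, which reaches to 127632897, so it precedes an internal start. Capitals mark E-boxes (CANNTG), the motif bound by myogenic and other basic helix-loop-helix factors.
Slc15a2: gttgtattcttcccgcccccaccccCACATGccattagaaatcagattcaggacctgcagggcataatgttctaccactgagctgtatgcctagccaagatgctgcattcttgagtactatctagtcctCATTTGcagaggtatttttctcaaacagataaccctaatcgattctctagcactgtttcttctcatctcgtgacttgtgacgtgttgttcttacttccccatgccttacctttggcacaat
Slc15a4: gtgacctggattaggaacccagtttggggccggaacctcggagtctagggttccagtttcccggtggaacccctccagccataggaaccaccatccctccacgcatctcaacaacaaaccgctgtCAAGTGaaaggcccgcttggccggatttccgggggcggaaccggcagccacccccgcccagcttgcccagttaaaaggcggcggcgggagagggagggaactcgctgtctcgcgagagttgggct
The Slc15a2 window held 2 E-boxes, which began 225 and 121 bases before the start, and the Slc15a4 window held 1, at 125 bases. An E-box occurs in 66.2% of the 32851 RefSeq promoter windows of this length. CAGCTG, an E-box form, was found in neither window and in 13% of all windows, and TATAAA in neither and in 12.4% of all. GGGCGG, searched on both strands like the other motifs, was found at 1 position before Slc15a2 and 2 positions before Slc15a4, and in 32.7% of all windows. The windows differed in composition. G and C made up 45.2% of the bases before Slc15a2, with 4 CpG pairs, and 62.8% before Slc15a4, with 17 CpG pairs, against medians of 52.4% and 6 over all windows. Of the other members, Slc15a1 had 62% G and C with 7 CpG pairs, and Slc15a5 had 37.2% with 1 CpG pair.

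The 6 libraries held 47944477 to 63323577 counted reads. Values are CPM, counts scaled to the same total in every sample, and differences are log2 fold changes of cKO over control from edgeR. Calls were made by the quasi-likelihood test of edgeR at a Benjamini-Hochberg adjusted p under 0.05. That held for 15.8% of the genes tested, 9.38% being higher and 6.46% lower in cKO. In CPM, every cKO sample lay above every control sample for 20.3% of the genes tested, and below for 11.1%. Hira, the targeted gene, had counts of 375, 348 and 341 among controls and 161, 293 and 272 among cKO samples, a log2 fold change of -0.43 (SE 0.12, adjusted p = 0.0237). The cKO counts were lower in every sample but far from 0. The paper reports a strong fall of Hira RNA by RT-qPCR in satellite cells of cKO mice, where staining did not detect the protein. Without control replicate 1 the adjusted p of Hira was 0.104. Of the exonic bases of Hira, 44.7% also belong to Gm28539, a gene model on the same strand that had 0 counts in all 6 samples. Reads in the shared bases were thus not counted for Gm28539, and whether they were counted for Hira was not tested. The counts and the log2 fold change of Hira may therefore rest only on its remaining exonic bases.

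Slc15a2 (ENSMUSG00000022899), on the minus strand of mm10 chromosome 16 from 36750177 to 36784962, was low in cKO cells. It had 237, 202 and 211 counts in control replicates 1, 2 and 3 and 32, 34 and 35 counts in cKO replicates 1, 2 and 3. The cKO counts lay close together and far below the control counts, and the groups did not overlap. A separation of the groups in this direction, of any size, was found in CPM for 11.1% of the genes tested. In CPM the control samples had 4.19, 3.19 and 3.44, and the cKO samples 0.667, 0.575 and 0.627. Mean CPM was 3.61 ± 0.522 for control against 0.623 ± 0.0464 for cKO (SD, n = 3 each), 5.79-fold apart, and the log2 fold change was -2.56 (SE 0.15). The lowest lower bound of a cKO sample's 95% counting interval was 0.398 CPM, in cKO replicate 2 (exact Poisson intervals, which cover counting error only). Reads of the gene thus remained in every cKO sample, above the floor of 3 counts, which corresponds to 0.0474 to 0.0626 CPM at these depths. Leaving out any single library gave log2 fold changes between -2.64 and -2.44. In bulk RNA, fewer cells of a type and less RNA per cell cannot be told apart.

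This was the most negative log2 fold change of the 22404 genes tested, among which 31 were called lower by at least 1 on that scale. Slc15a2 was not an abundant transcript at the outset. Its mean CPM in control exceeded that of 40.7% of the tested genes, and its mean in cKO that of 19.3%. No exonic base of Slc15a2 is shared with another gene, and 0.198% of its 75-base windows, the read length, occur in another exon of the annotation. Gm8425, a processed pseudogene that lies within its span without touching an exon, had counts of 15, 32 and 32 among controls and 23, 38 and 26 among cKO samples, with overlapping groups (log2 fold change 0.27, SE 0.28).

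**Figure D1:**
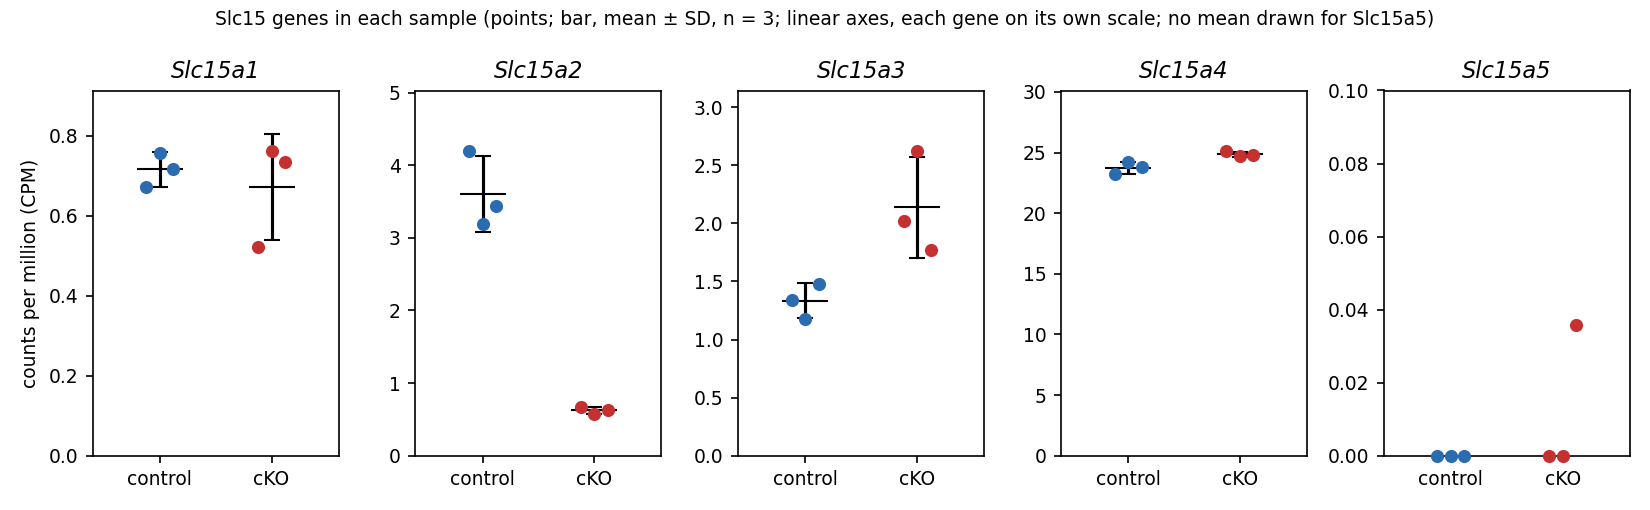
Level of each Slc15 gene in each of the 6 samples in CPM, with the points as samples and the bars as the mean and SD of the 3 samples per group. The 3 cKO points of Slc15a2 lie between 0.575 and 0.667 CPM, below all 3 control points, while those of Slc15a4 lie near 25 CPM in both groups.

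Slc15a4 (ENSMUSG00000029416, chromosome 5, 127595664 to 127632897) was the most abundant member. It had counts of 1311, 1531 and 1463 among controls and 1205, 1462 and 1383 among cKO samples, or 23.2, 24.2 and 23.8 CPM against 25.1, 24.7 and 24.8 CPM. The cKO values were all slightly above the control values in CPM, as for 20.3% of the genes tested. The means were 23.7 ± 0.504 for control and 24.9 ± 0.226 for cKO (SD, n = 3 each). Its log2 fold change was 0.04 (SE 0.04). Of its exonic bases, 8.04% lie opposite Gm43474, which had at most 2 counts in a sample.

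Slc15a3 (ENSMUSG00000024737, chromosome 19, 10839727 to 10859362) went the other way from Slc15a2. It had counts of 76, 75 and 91 among controls and 97, 155 and 99 among cKO samples, or 1.34, 1.18 and 1.48 CPM against 2.02, 2.62 and 1.77 CPM. All 3 cKO values were above the control values, as for 20.3% of the genes tested, with cKO replicate 2 the highest. The means were 1.34 ± 0.149 and 2.14 ± 0.435 CPM (SD, n = 3 each), and the log2 fold change was 0.66 (SE 0.16), ranging from 0.48 without cKO replicate 2 and 0.57 without control replicate 2 to 0.78 without cKO replicate 3. The count of this gene is uncertain, because 28.1% of its exonic bases lie opposite Tmem132a and the strand setting of the counting is not given in the sources used here. Tmem132a itself had counts of 4338, 4568 and 4519 among controls and 3552, 3904 and 3824 among cKO samples, with a log2 fold change of -0.12 (SE 0.04).

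Slc15a1 (ENSMUSG00000025557, chromosome 14, 121459621 to 121505252) was low in both groups. It had counts of 38, 48 and 44 among controls and 25, 45 and 41 among cKO samples, which overlap, and the means were 0.716 ± 0.043 and 0.672 ± 0.131 CPM (SD, n = 3 each). The log2 fold change was -0.10 (SE 0.20), and it was 0.03 without cKO replicate 1, the lowest sample. Slc15a5 (ENSMUSG00000044378, chromosome 6, 137983586 to 138079916) had 0 counts in 5 samples and 2 counts in cKO replicate 3, did not pass the filter, and gets no fold change.

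The 4 log2 fold changes of the family thus ran from -2.56 to 0.66, while the median over all genes tested was -0.001. Since the family was chosen on this contrast, no call is made for its members.

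**Figure D2:**
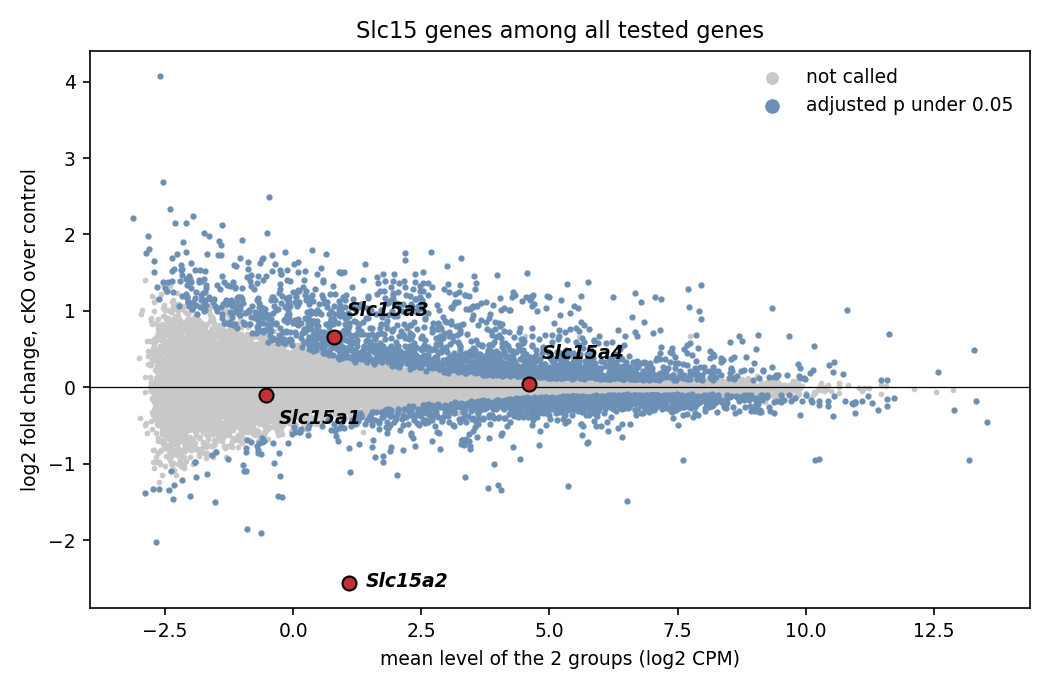
Log2 fold change of cKO over control against mean log2 CPM for all 22404 genes tested, with the 4 tested Slc15 genes marked. Slc15a2 lies at -2.56, below every other gene, Slc15a4 at 0.04 lies in the main cloud and Slc15a3 lies above it at 0.66.

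Levels of different genes were compared as CPM per kb of exon, which takes account of transcript length. On this scale Slc15a4 had 4.47 ± 0.0949 in control and 4.68 ± 0.0426 in cKO (SD, n = 3 each), far above every other member in all 6 samples. Slc15a2 followed in control with 0.569, 0.433 and 0.467, above the Slc15a3 levels of 0.245, 0.216 and 0.27. In cKO the order of these genes was the opposite, with Slc15a2 at 0.0907, 0.0781 and 0.0852 and Slc15a3 at 0.368, 0.477 and 0.323. Slc15a1 came last of the tested members in control, at 0.138 to 0.155, and stood above Slc15a2 in every cKO sample, at 0.107 to 0.156. In none of these neighbouring pairs did the levels overlap within a group. As a share of the Slc15a4 level per kb, Slc15a2 amounted to 11% ± 1.83 in control and 1.81% ± 0.12 in cKO (SD, n = 3 each). As a share of the summed level of the family it was 9.17% ± 1.37 in control and 1.6% ± 0.13 in cKO. Slc15a4 made up 83.5% ± 1.44 and 88.4% ± 1.43 of that sum.

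Slc15a2 and Hira lie on the same chromosome, which raises the question of how the genes near either one behaved. Hira spans 18877037 to 18970309 on the plus strand, and the gap from its end to the nearer end of Slc15a2 is 17779867 bases. That stretch holds 418 annotated genes, of which 192 were tested. In it 20 genes were called higher and 17 lower, or 19.3% against 15.8% of all genes, with a median log2 fold change of -0.003 and a range from -0.70 to 1.48. The count of calls there ranged from 22 to 35 when single libraries were left out, the lowest value being without control replicate 2 and the next, 23, without control replicate 3. The lowest called gene in between was Dgkg, a diacylglycerol kinase, at -0.56 (SE 0.1, edgeR adjusted p = 0.000919). The highest was Uts2b, a urotensin-related peptide, at 1.48 (SE 0.22, adjusted p = 0.00019), and both were picked after their values were seen.

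Around Hira itself, 0 of the 20 nearest tested genes, 10 on each side, were called by edgeR, with 3 at an unadjusted p under 0.05 and 0 called by DESeq2. Their log2 fold changes ran from -0.28 to 0.54. In the first 2 Mb from Hira towards Slc15a2, 0 of 33 tested genes were called by edgeR, with 4 at an unadjusted p under 0.05 and 0 called by DESeq2. On chromosome 16 without Slc15a2, 68 of 692 tested genes were called higher and 47 lower, 16.6% in all, against 15.8% on the other chromosomes.

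The tested genes closest to Slc15a2 showed no difference near the size of its own. Eaf2, an elongation factor partner 7.92 kb to its right, had counts of 23, 33 and 24 among controls and 17, 17 and 22 among cKO samples, with a log2 fold change of -0.38 (SE 0.26, edgeR adjusted p = 0.394). Iqcb1, a gene of the primary cilium 43.4 kb away, had -0.16 (SE 0.06, adjusted p = 0.106), and its span lies within that of Eaf2 on the other strand. Golgb1, a Golgi tether 90.2 kb away, had -0.04 (SE 0.03), and Gm49599, which starts at the same base, had -0.24 (SE 0.10, adjusted p = 0.116). To the left, the nearest tested gene was Gm8538, a processed pseudogene 13.1 kb away, at 0.06 (SE 0.14). The next were the gene models Gm10913 at -0.01 and Gm6815 at 0.29, which lie 540 and 552 kb away. Within 100 kb on the left, Ildr1 with counts of 0, 5 and 4 among controls and 1, 0 and 1 among cKO samples, and Cd86 with 1, 2 and 7 against 6, 5 and 6, were too low to be tested.

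Of the 20 nearest tested genes, 1 was called higher and 2 lower, or 15% against 15.8% of all genes. Hcls1, a cortactin-like protein of blood cells 150 kb to the right, had counts of 52, 66 and 96 among controls and 129, 133 and 101 among cKO samples, a log2 fold change of 0.90 (SE 0.19, edgeR adjusted p = 0.00408). The lower calls were Fam162a, a mitochondrial protein 679 kb to the left, at -0.14 (SE 0.04, adjusted p = 0.0369), and Kpna1, an importin 713 kb to the left, at -0.13 (SE 0.04, adjusted p = 0.0266). Both were small in size and lost the call without control replicate 1, 2 or 3, without cKO replicate 2, and with cKO replicate 1 left out for Fam162a or cKO replicate 3 for Kpna1. Over these fits the edgeR adjusted p was 0.0675 to 0.139 for Fam162a and 0.0599 to 0.101 for Kpna1. With total counts alone in place of TMM, both genes lost the call as well, as did Fam162a with a replicate block.

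**Figure D3:**
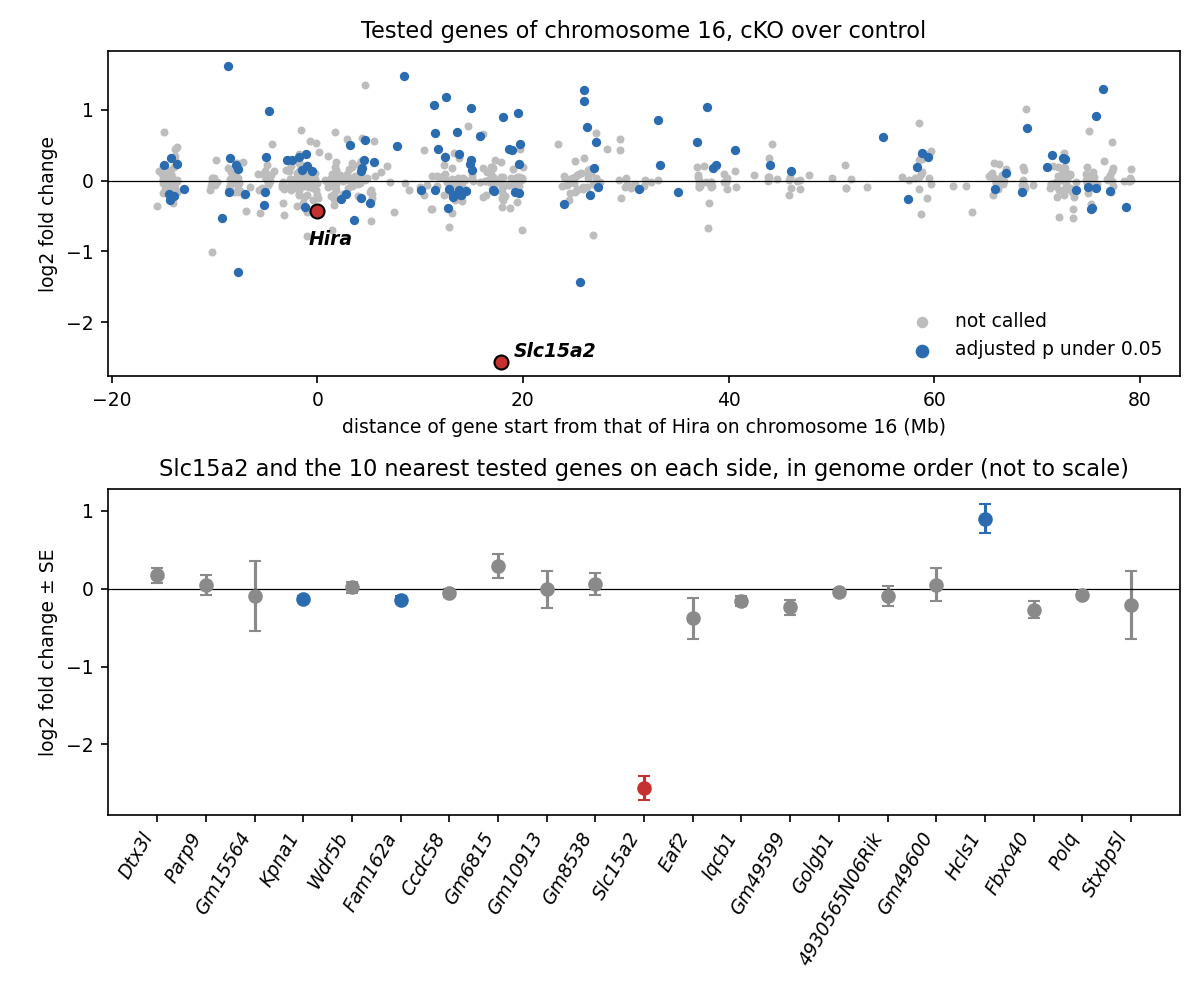
Top, log2 fold change of each tested gene of chromosome 16 against its distance from Hira in Mb, and bottom, the log2 fold change with its SE for Slc15a2 and the 10 nearest tested genes on each side in genome order. Slc15a2 stands alone at -2.56, 17.8 Mb from Hira, while its neighbours lie between -0.38 and 0.90.

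Genes that work beside peptide transporters were taken as lists: peptidases, the endosomal receptor and NOD pathway, proton exchange with scaffold proteins, and amino acid transporters. Counts are read beside the 15.8% of all genes called and the median of -0.001. Peptidases release or degrade the peptides that these transporters carry. Of 22 listed, 18 were tested, 3 were called higher and 1 lower, and the median log2 fold change was 0.000. Cndp2, a cytosolic dipeptidase, rose from 20.3 to 26.5 CPM in mean (log2 fold change 0.36, SE 0.05, edgeR adjusted p = 6.27e-05). Ggt7, of the gamma-glutamyltransferase family, rose by 0.35 (SE 0.06, adjusted p = 0.000794). The calls of Pepd, which cleaves dipeptides ending in proline (0.13), and of Thop1, a cytosolic endopeptidase and the most abundant of the list (-0.16), were each lost without control replicate 2 or 3. The adjusted p was then 0.0949 to 0.0965 for Pepd and 0.0501 to 0.0961 for Thop1 in edgeR's quasi-likelihood test.

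Slc15a3 and Slc15a4 are known for moving bacterial peptides to NOD sensors and for supporting endosomal Toll-like receptors. In that pathway 11 of 12 genes were tested, 4 were called higher and 1 lower, with a median log2 fold change of 0.14. Tlr8, an endosomal receptor of RNA fragments, had counts of 46, 56 and 46 among controls and 97, 132 and 125 among cKO samples (log2 fold change 1.38, SE 0.14, edgeR adjusted p = 5.57e-06). All its cKO values were above the control values, as for 20.3% of the genes tested in CPM. Tlr7, another RNA receptor, rose by 0.97 (SE 0.17, adjusted p = 0.000951) and Irf5, the transcription factor downstream, by 0.71 (SE 0.08, adjusted p = 1.28e-05). The gene 5430427O19Rik, also known as Tasl and the adaptor that binds Slc15a4, had 13, 15 and 11 counts against 9, 33 and 16 and was not called. The calls of Unc93b1, the escort of these receptors (0.19), and of Nod1, a sensor of bacterial wall peptides (-0.22), were lost when certain single libraries were left out. Unc93b1 lost it without control replicate 1, 2 or 3 or cKO replicate 1 or 2, and Nod1 without control or cKO replicate 2 or 3. The adjusted p then lay at 0.0517 to 0.13 for Unc93b1 and 0.0696 to 0.107 for Nod1 in edgeR's quasi-likelihood test.

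The proton gradient that drives PEPT2 is kept up by sodium-proton exchangers, held in place by PDZ scaffolds. Of 6 such genes, 4 were tested, 0 were called higher and 2 lower, with a median log2 fold change of -0.14. Slc9a2, an exchanger of the cell surface, fell from 13.5 ± 0.76 to 9.31 ± 1.59 CPM (SD, n = 3 each), with a log2 fold change of -0.57 (SE 0.09, edgeR adjusted p = 0.000425). Pdzk1, a scaffold that binds PEPT2, had counts of 3, 8 and 8 among controls and 3, 2 and 3 among cKO samples, too few to be tested.

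Amino acid transporters take up or release the building blocks that peptides yield. Of 16 listed, 14 were tested, 0 were called higher and 6 lower, with a median log2 fold change of -0.13. Slc38a1, a glutamine transporter, fell by 0.21 on the log2 scale (SE 0.03, edgeR adjusted p = 0.000239). Slc6a6, the taurine transporter and the most abundant of the list, fell from 798 to 720 CPM in mean (adjusted p = 0.00254), and Slc7a5, which exchanges large neutral amino acids, from 270 to 247 CPM (adjusted p = 0.00495). Slc7a11, the cystine exchanger (-0.14), Slc3a2, the heavy chain partner of Slc7a5 and Slc7a11 (-0.13), and Slc38a9, a lysosomal sensor (-0.17), were called as well. Without control replicate 1 or 2 the list had 3 calls. None of the 6 log2 fold changes was below -0.21, while that of Slc15a2 was -2.56.

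**Figure D4:**
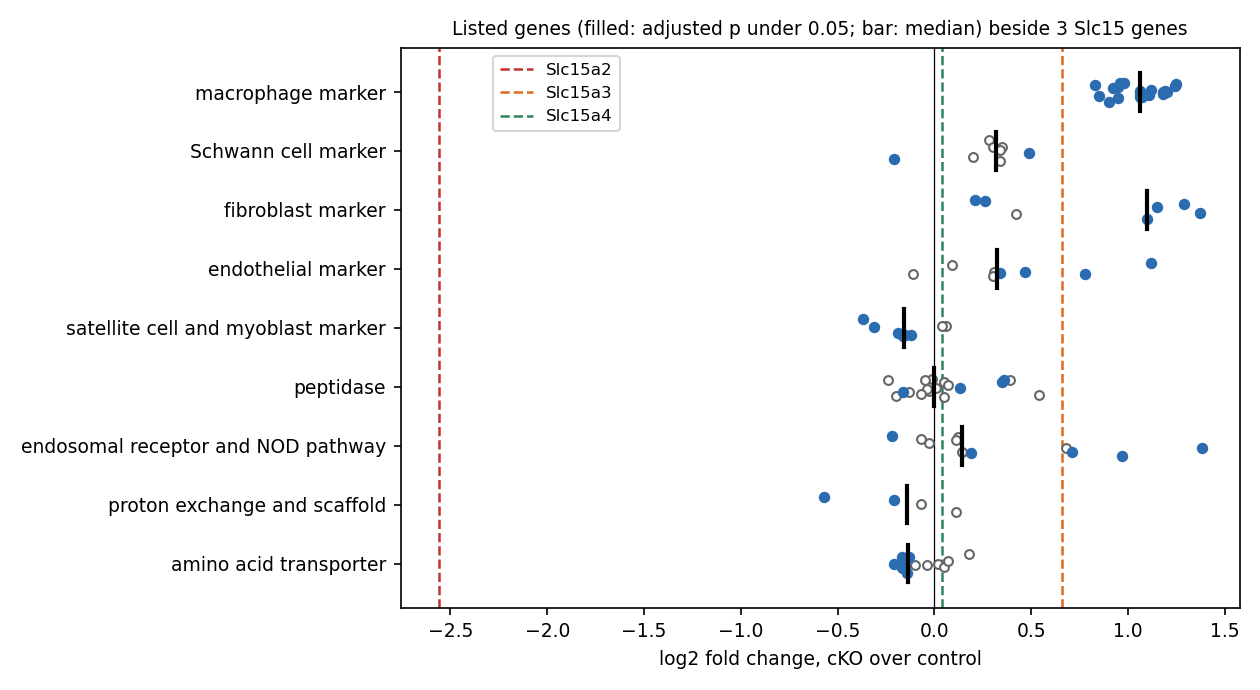
Log2 fold change of every tested gene in the marker and partner lists, 1 row of points per list, with dashed lines at the values of Slc15a2, Slc15a3 and Slc15a4. No gene of these lists lies near Slc15a2 at -2.56, the nearest being Slc9a2 at -0.57, and the macrophage markers lie between 0.83 and 1.25, above Slc15a3 at 0.66.

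Markers of other cell types moved between the groups beside these genes. The paper reports higher Cdh5 and Pdgfra RNA by RT-qPCR in satellite cells lacking Hira, and VE-Cadherin staining of such cells. It reads these as genes of alternative lineages expressed by the satellite cells themselves. Which cells expressed the markers in these libraries was not tested. Of 20 macrophage markers, all 20 were tested and called higher, against 9.38% of all genes tested. Their median log2 fold change was 1.06, with a range from 0.83 to 1.25, and none was at 0 counts. The call of Aif1, a calcium-binding protein of these cells (0.95), was lost with DESeq2 and when any library but control replicate 1 was left out (edgeR adjusted p 0.0563 to 0.155), which left 19 calls. Lyz2, a lysozyme and the most abundant, rose from 80.4 to 186 CPM in mean, Ctss, a lysosomal protease, from 18.6 to 43 CPM and C1qc, a complement subunit, from 5.48 to 13.3 CPM. Ptprc, the gene of CD45, against which the sort selected, had counts of 72, 94 and 94 among controls and 126, 169 and 167 among cKO samples. The summed CPM of the list was 165 to 172 in control and 346 to 406 in cKO, and its highest sample, cKO replicate 2, was also the highest for Slc15a3. Slc15a3 amounted to 0.714% to 0.898% of that sum in control and 0.513% to 0.646% in cKO. The part of these markers in the values of Slc15a3, Tlr7, Tlr8, Irf5 and Hcls1 was not tested.

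Glial cells are a known site of PEPT2, so Schwann cell markers were set beside Slc15a2. Of 10 markers, 8 were tested, 1 was called higher and 1 lower, or 25% against 15.8% of all genes. The median log2 fold change was 0.32. The log2 fold change was positive for 7 of the 8. Ngfr, a neurotrophin receptor, rose by 0.49, and Erbb3, a neuregulin receptor that myogenic cells also express, fell by 0.21 on the log2 scale. Sox10, the defining transcription factor of these cells, had counts of 122, 146 and 123 among controls and 137, 172 and 143 among cKO samples. Its log2 fold change was 0.34 (SE 0.11, edgeR adjusted p = 0.0501), so it was narrowly not called. The summed CPM was 244 to 252 in control and 230 to 237 in cKO, most of it from Erbb3.

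Of 8 fibroblast markers, 7 were tested and 6 were called higher, against 9.38% of all genes tested, with a median log2 fold change of 1.10. Mfap5, a microfibril protein, rose by 1.37 and Col1a1, a collagen chain, from 120 to 298 CPM in mean, while Lum, a proteoglycan, had counts of 2, 0 and 1 among controls and 5, 6 and 12 among cKO samples and was not tested. The list's sum was 1079 to 1159 CPM in control and 1476 to 1643 CPM in cKO. Of 8 endothelial markers, 4 were called higher, against the same 9.38%, with a median log2 fold change of 0.325. Flt1, a growth factor receptor, was at 1.12 and Kdr at 0.78. The calls of Cdh5 (0.47) and Pecam1 (0.34) were each lost when certain single libraries were left out, and that of Pecam1 also with DESeq2. Emcn, Vwf, Tek and Tie1 were not called, at 0.31, 0.30, 0.09 and -0.11. The sum of the endothelial list was 19.5 to 21.1 CPM in control and 29.4 to 34.6 CPM in cKO. In that list 2 genes were called without control replicate 2 or without cKO replicate 2. Satellite cell and myoblast markers were present in all samples, and 6 of 8 were called lower, against 6.46% of all genes tested. Their median log2 fold change was -0.16. Myf5 and Pax7, transcription factors of these cells, fell by 0.37 and 0.19, and Sdc4 and Cdh15 were not called, at 0.06 and 0.04. Without control replicate 1, 2 or 3, 4 of the 8 were called, as Des (-0.15) and Itga7 (-0.12) lost their calls. The list's sum was 4974 to 5087 CPM in control and 4466 to 4799 CPM in cKO. The part of these markers in the difference of Slc15a2 was not tested.

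The genes with the most negative log2 fold changes after Slc15a2 were mostly short structured RNAs. They were Rprl3 at -2.03 (SE 0.43), Scarna6 at -1.90 (SE 0.30), Rpph1, the RNA of ribonuclease P, at -1.86 (SE 0.40), and the transcript C130046K22Rik at -1.50 (SE 0.34). Among the 5 largest falls, Slc15a2 alone was protein coding. Rprl3 had counts of 12, 21 and 13 among controls and 3, 3 and 4 among cKO samples, at the floor.

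The genes whose pattern over the 6 samples lay closest to that of Slc15a2 were found by the distance between centred log2 CPM values among 16640 genes of at least 1 CPM. They were the ribosomal RNA model CT010467.1, Tmtc1, the small RNA model Gm23935, the lincRNA Gm38534 and the small RNA model Gm24270, at distances of 1.34, 1.63, 1.69, 1.7 and 1.84. Tmtc1, an endoplasmic reticulum mannosyltransferase and the protein-coding gene among them, averaged 14 ± 1.11 CPM among controls and 6.31 ± 0.638 CPM among cKO samples (SD, n = 3 each), with a log2 fold change of -1.18 (SE 0.08). Gm38534 had 5.55 and 2.55 CPM in mean, at -1.14 (SE 0.09). Pearson's r with Slc15a2 was 0.989 for Tmtc1 and 0.988 for Gm38534, values that rest on the gap between the groups and on 6 libraries shared by both genes.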

How the data were processed

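Ribo-Zero depleted RNA (400 ng per sample) was made into TruSeq stranded libraries and read as single 75-base reads. The authors aligned reads to mm10 with Bowtie2 2.3.4.2, an aligner without spliced alignment, and deposited raw counts per gene for each sample from featureCounts 1.6.3, per the labels and the submitters' processing notes; the strand setting and annotation release are not given in the sources used here. All 55536 gene identifiers matched GENCODE M21 (GRCm38), which gave symbols and positions. A further deposited table with the authors' own fold changes and p-values from DESeq2 2.11.40.6 and a normalized table were not used.

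The counts were tested with edgeR 4.0.16 in R 4.3.3 (filterByExpr, TMM, genotype as the only term, two-sided quasi-likelihood test, Benjamini-Hochberg over 22404 genes), after the code was tested on simulated data. CPM used total counts. Alternatives were DESeq2 1.42.0, its size factors in edgeR, total counts alone, no filter, a replicate block and leaving out each sample. The members and all gene lists were chosen with earlier results of these data known. Named genes were the members, Hira, the 3 nearest tested genes on each side of Slc15a2 and genes called among the 10 on each side, up to 6 called genes of largest change and up to 3 most abundant genes per list, the 5 largest falls and the 5 genes most like Slc15a2; others are said to be chosen after their values were seen or are given for an overlap or as untested neighbours or list members. Some genes of these lists are not reported here by name. Intervals and floors cover counting error only, since reads carried no molecular identifiers. No samples shared a library: the chi-square per degree of freedom between replicates was 2.04 to 9.46.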

Additional observations from a re-analysis of the deposited data

How the results depend on the processing

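Of 199 values recomputed under alternative settings, 174 moved by less than the replicate SD (log2 fold changes of the members) or by at most 1.5 times (counts of calls), and 25 moved further. Within these bounds a count can still differ, and single genes gained or lost calls. The log2 fold change of Slc15a2 was -2.55 with a replicate block. In that fit 1901 genes were called higher and 1251 lower, against 2101 and 1448 without the block. In either fit 3 neighbours of Slc15a2 were called, but not the same ones, since Fam162a was not called with the block. No shared deviation of same-numbered samples was seen, with correlations of deviations of -0.0129, -0.00451 and -0.0145 for replicates 1, 2 and 3. These values cannot show whether the samples were handled in pairs. With total counts alone in place of TMM, the log2 fold change of Slc15a4 was 0.07, 1 neighbour of Slc15a2 and 1 proton exchange gene were called, and 2462 genes were higher and 1057 lower, so that 70% of calls were higher in place of 59.2%. Without the filter on low counts, 5 neighbours of Slc15a2 were called. When single libraries were left out, calls among all genes ranged from 1571 to 2214 higher and from 917, without control replicate 1, to 1673 lower. The range was 22 to 35 between Hira and Slc15a2, 1 to 3 among the neighbours of Slc15a2, 3 to 6 for amino acid transporters, 3 to 5 for the endosomal receptor and NOD pathway, 2 to 4 for endothelial markers, 2 to 5 for peptidases, 1 to 2 for proton exchange, 4 to 6 for satellite cell and myoblast markers and 19 to 20 for macrophage markers. The cause of these changes was not tested, beyond the smaller number of samples where a library was left out. Scaling counts by gene length leaves the ratio of a gene between samples as it is up to a constant per sample. Depth limits Slc15a1, Slc15a5, Pdzk1, Ildr1 and Cd86, whose low counts allow no statement on small differences.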
